A study of Mus musculus with 24 samples.

Results

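The genes described here are 10 enzymes and regulators of de novo lipogenesis, the making of fatty acids from sugar-derived carbon, measured in the inguinal white fat of mice, which lies under the skin. They were taken by name from a list of fatty acid synthesis genes, which was chosen with earlier results of these data known. All 10 (Fasn, Acaca, Acacb, Acly, Me1, Srebf1, Mlxipl, Thrsp, Acss2 and Pnpla3) were among the 16118 genes of the deposited table. Poly(A) RNA of 24 mice was sequenced, 1 library per animal, in 6 groups of 4. Males and females were taken on postnatal day 21 (P21), or on day 28 (P28) after standard weaning (SW, parted from the mother on day 21) or delayed weaning (DW, left with her). The labels of the P21 animals also give SW, but SW stands here for P28 animals only. Per the deposited table, Fasn, Acaca, Acly and Srebf1 lie on chromosome 11, Acacb and Mlxipl (ENSMUSG00000005373) on 5, Thrsp (ENSMUSG00000035686) on 7, Me1 on 9, Acss2 on 2 and Pnpla3 on 15. The labels give no genotype, strain, diet or litter for any group, and they do not say how many mothers the pups came from. The series addresses how this fat depot is remodelled in each sex when breastfeeding is prolonged.

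In de novo lipogenesis, citrate leaves the mitochondrion and ATP citrate lyase (Acly) splits it into cytosolic acetyl-CoA, while Acss2 makes acetyl-CoA from acetate. Acetyl-CoA carboxylase makes malonyl-CoA, from which fatty acid synthase (Fasn) builds palmitate. Of the carboxylases, Acaca encodes the cytosolic enzyme that feeds synthesis, and Acacb the mitochondrial-membrane enzyme whose malonyl-CoA restrains fatty acid oxidation. Malic enzyme (Me1) supplies NADPH. Among the regulators, Mlxipl encodes ChREBP, a transcription factor activated by sugar metabolites, Srebf1 encodes a sterol regulatory element-binding protein driven by insulin, and Thrsp is a nuclear protein induced by thyroid hormone and carbohydrate feeding. Pnpla3 encodes a lipid-droplet hydrolase and transacylase that is a target of both factors. Milk is rich in fat, whereas laboratory chow is rich in carbohydrate, and rodent lipogenic enzymes are known to rise when pups take solid food.

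The 250 bases upstream of the annotated starts are shown for the enzyme at the end of the pathway, Fasn, and for the regulators with the clearest differences between weaning groups, Mlxipl and Thrsp (RefSeq, build GRCm38.p6, printed on the gene's strand). Mlxipl has 2 listed starts 17001 bases apart. The deposited values are per gene, so transcripts from those starts could not be told apart. Capitals mark matches, on either strand, to an E-box (CACGTG), a sterol element core (TCACNCCAC), an NF-Y box (CCAAT), a GC box (GGGCGG) or a TATA box (TATAAA).
Fasn, chr11:120824548-120824797, minus strand: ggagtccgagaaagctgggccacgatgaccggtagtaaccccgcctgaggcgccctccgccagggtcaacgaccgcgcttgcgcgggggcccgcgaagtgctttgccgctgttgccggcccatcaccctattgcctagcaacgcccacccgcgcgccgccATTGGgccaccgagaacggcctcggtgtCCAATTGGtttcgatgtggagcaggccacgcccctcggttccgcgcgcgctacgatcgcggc
Mlxipl upstream start, chr5:135089640-135089889, plus strand: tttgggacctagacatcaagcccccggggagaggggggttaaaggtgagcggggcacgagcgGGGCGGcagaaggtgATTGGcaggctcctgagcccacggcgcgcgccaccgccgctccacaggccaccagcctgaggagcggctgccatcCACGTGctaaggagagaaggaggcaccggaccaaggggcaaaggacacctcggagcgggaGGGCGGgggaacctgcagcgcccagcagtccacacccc
Mlxipl downstream start, chr5:135106641-135106890, plus strand: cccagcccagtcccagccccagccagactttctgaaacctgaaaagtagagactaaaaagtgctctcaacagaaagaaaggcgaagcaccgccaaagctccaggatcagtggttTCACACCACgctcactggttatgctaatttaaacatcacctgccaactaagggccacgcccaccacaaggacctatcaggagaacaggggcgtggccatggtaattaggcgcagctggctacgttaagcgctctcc
Thrsp, chr7:97417551-97417800, minus strand: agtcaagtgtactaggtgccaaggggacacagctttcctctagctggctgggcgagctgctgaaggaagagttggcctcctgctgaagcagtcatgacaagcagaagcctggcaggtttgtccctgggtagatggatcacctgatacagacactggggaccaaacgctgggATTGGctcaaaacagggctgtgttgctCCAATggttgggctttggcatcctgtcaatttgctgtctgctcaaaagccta
The upstream Mlxipl window held an E-box 98 bases before the start, and the downstream window a sterol element core 136 bases before the start. In windows of 300 bases (250 before to 50 after a start), the E-box and the sterol element core were each matched in 1 of the 10 genes, Mlxipl in both cases, against 7.2% and 1.2% of all 32851 windows. The NF-Y box was matched in 9 of 10 genes (37.4% of all windows), the GC box in 6 (35.7%) and the TATA box in 1, Acacb (13.6%). Fasn held NF-Y boxes 90, 62 and 59 bases before its start, the latter pair overlapping in CCAATTGG, and Thrsp held them 79 and 52 bases before. Several genes have more than 1 window, which raises a count per gene above a share of windows. Of the 14 windows of the 10 genes, 10 matched the NF-Y box, 7 the GC box and 1 each of the other motifs. These matches describe letters only.

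Recovered reads over the listed genes ran from 57600711 to 302145813 per library, and the lowest count of any of the 10 genes in any library was 7481 reads, so counting error was small beside the spread between animals. The unit is the authors' read number divided by a factor of each library. Divided by the length of the longest coding transcript, mean values over the 24 animals ordered the genes as Fasn (756 per kilobase), Thrsp (600.5), Acly (600.4), Me1 (530), Acaca (198), Acss2 (144), Pnpla3 (110.2), Mlxipl (87.8), Acacb (48.6) and Srebf1 (37.6). The enzymes of the cytosolic route and Thrsp were thus the abundant transcripts, and the transcription factors and Acacb the scarce ones. All 8 adipocyte markers were measured above 0 in every library. Some libraries stood apart: DW females 82 and 83 had Cidec at 306 and 306, against 733 and 611.5 in DW females 76 and 77, and Lipe at 484 and 357 against 773 and 817, while Retn was 1821 and 1511 against 977 and 753. Their correlations of expression with transcript GC content were −0.385 and −0.546, against 0.315 and 0.181 in DW females 76 and 77. That of P21 male 37 was −0.456, and those of the other 21 libraries lay between −0.202 and 0.358. In P21 female 30, Me1, Acaca, Acly and Acss2 were the lowest of all 24 libraries. Bulk RNA cannot tell fewer adipocytes from less RNA per adipocyte.

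**Figure D1:**
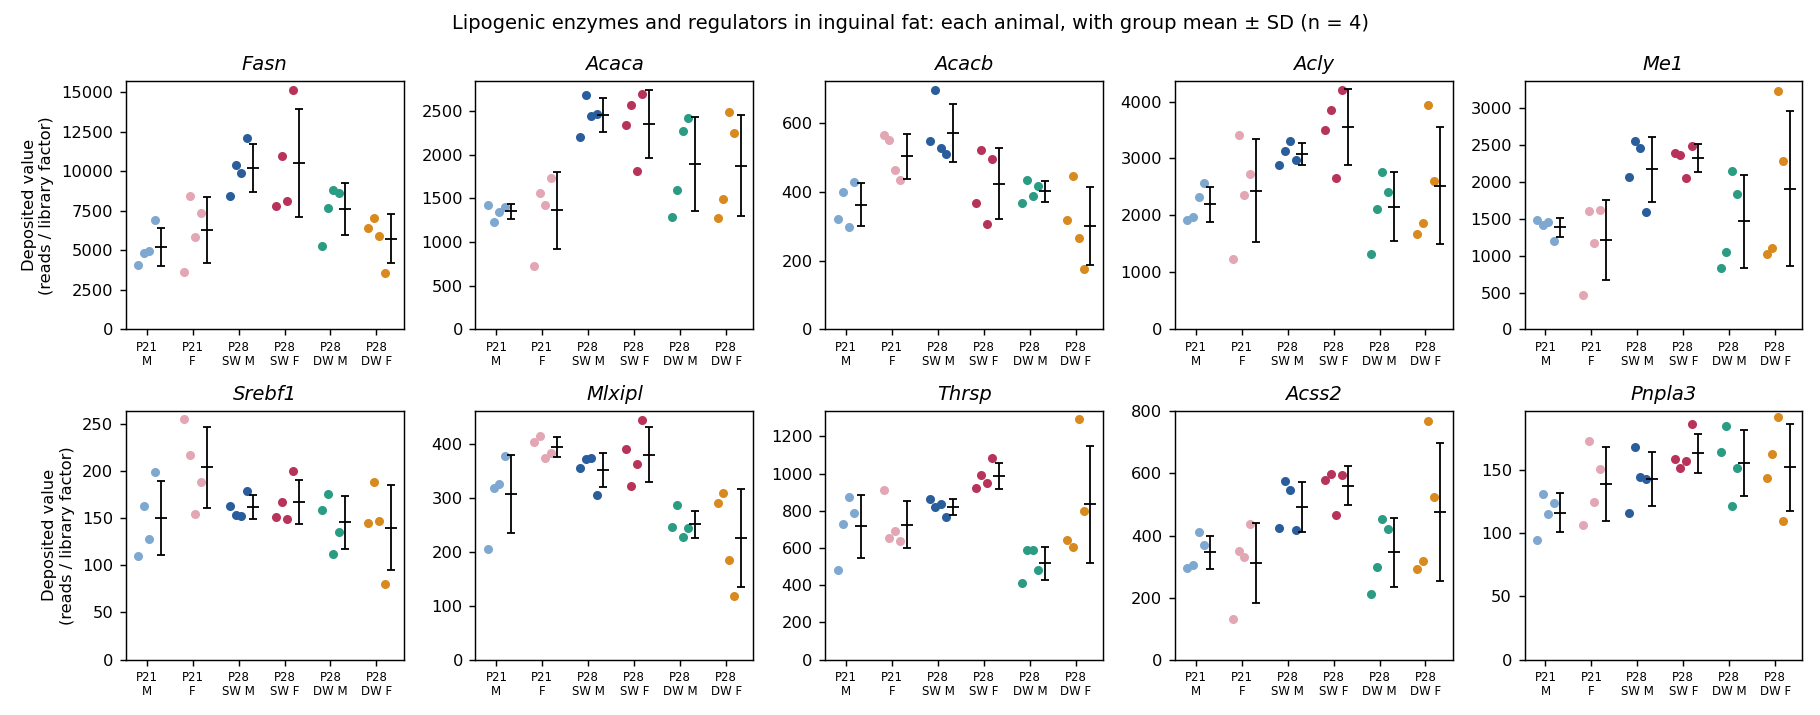
Deposited values (reads divided by a library factor, linear axes from 0) of the 10 lipogenic genes, 1 point per animal, with the group mean and SD beside the points (n = 4). SW animals of both sexes sit above most DW animals for Mlxipl, and Me1 spans 1021 to 3229 within DW females.

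Delayed was compared with standard weaning at P28 to ask how the lipogenic genes stand in fat of pups still with the mother. In DW animals the regulator Mlxipl was lower, at 0.632 times the SW level over both sexes (difference −0.66 (SE 0.154, adjusted p = 0.0213) on the log2(value + 1) scale, n = 8 against 8). By limma, the other 9 genes did not pass the adjusted threshold of 0.05 in any of the 3 weaning comparisons (calls by edgeR and DESeq2 follow). Nearly all differences had the same sign. In males 9 of 10 were negative (48.9% of all 16005 genes tested) with a median of −0.49 (0.0037 over all genes), and in females 10 of 10 (54.6%) with a median of −0.41 (−0.02). Levels of many of these genes are correlated with each other, so these counts are not independent.

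For Mlxipl, the 4 SW males had 354, 372, 374 and 306, and the 4 DW males 247, 287, 227 and 244. SW females had 391, 321, 363 and 444, and DW females 291, 309.6, 186 and 117. In each sex every DW animal lay below every SW animal, and DW females 83 and 82 had the lowest values of all 24 mice. The difference was −0.48 (SE 0.217, adjusted p = 0.685) in males and −0.84 (SE 0.217, adjusted p = 0.0584) in females, and it did not differ detectably between the sexes (interaction −0.35 (SE 0.307, adjusted p = 0.813)). Without DW females 82 and 83 the difference in females was −0.33 (adjusted p = 0.976), the interaction 0.16 (adjusted p = 0.999), and the difference over both sexes −0.41 (adjusted p = 0.0805). Leaving out SW female 81 or DW female 82 alone gave −0.62 (adjusted p = 0.0544) and −0.63 (adjusted p = 0.0511). The difference was −0.57 (adjusted p = 0.00491) with values corrected for GC content.

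Thrsp, the carbohydrate-responsive nuclear protein, was 861, 818, 838 and 764 in SW males and 411, 588, 587 and 481 in DW males. All DW males were below all SW males, with a difference of −0.68 (SE 0.202, adjusted p = 0.267). SW females had 924, 994, 951 and 1083 and DW females 640.2, 605, 1291 and 801. Here DW female 82 was above all SW females, and the other 3 DW females were below them. The difference in females was −0.31 (SE 0.202, adjusted p = 0.388). Over both sexes it was −0.49 (SE 0.143, adjusted p = 0.0734), and −0.67 (adjusted p = 0.00688) without DW females 82 and 83, which passed the threshold.

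Fasn was 8450.1, 10401, 9871 and 12122 in SW males and 5249.9, 7712, 8812 and 8652 in DW males. In SW females it was 7790.1, 11008, 8116 and 15145, and in DW females 6448, 7043, 5940.4 and 3554. No DW female reached the lowest SW female, whereas the male groups overlapped. The differences were −0.44 (SE 0.314, adjusted p = 0.899) in males and −0.86 (SE 0.314, adjusted p = 0.177) in females, a fold of 0.549 in the latter with a 95% interval of −1.52 to −0.21 on the log2 scale. Acacb, the carboxylase tied to oxidation, was 548, 697, 529 and 511 in SW males and 367, 434, 387 and 419 in DW males, without overlap. Its differences were −0.50 (SE 0.211, adjusted p = 0.633) in males and −0.54 (SE 0.211, adjusted p = 0.206) in females, where the groups overlapped. Leaving out DW females 82 and 83, the female difference was −0.13 (adjusted p = 0.999) for Acacb and −0.59 (adjusted p = 0.999) for Fasn.

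Acly, the citrate-splitting enzyme, was 2892, 3140.1, 3315 and 2978 in SW males and 1330.0, 2118, 2763 and 2418 in DW males. In SW females it was 3495, 3849.9, 2663 and 4201, and in DW females 1678, 1871, 3940.4 and 2606. The male groups did not overlap, while DW female 82 lay among the SW females. Its difference was −0.56 (SE 0.289, adjusted p = 0.754) in males and −0.56 (SE 0.289, adjusted p = 0.293) in females. Me1 in DW males was 833, 1045, 2152 and 1839, and in DW females 1021, 1101, 3229 and 2281. In each sex the DW animals thus formed a lower and a higher pair. SW animals lay between 1589 and 2560, a range that DW animals 86, 87 and 83 entered and DW female 82 exceeded. Acaca and Acss2 showed the same pairs. Acaca was 1289, 1595, 2267 and 2426 in DW males and 1276, 1495, 2485 and 2252 in DW females, while Acss2 was 212, 298, 452 and 421 in DW males and 292, 319, 769 and 524 in DW females. The weaning differences of Me1, Acaca and Acss2 ran from −0.65 to −0.34 by sex, with adjusted p of 0.419 or more. When DW females 82 and 83 were left out, the female differences were −1.12 (adjusted p = 0.622) for Me1, −0.75 (adjusted p = 0.715) for Acaca, −0.87 (adjusted p = 0.743) for Acss2 and −0.98 (adjusted p = 0.499) for Acly. Srebf1 differed by −0.17 in males and −0.31 in females. Pnpla3 differed by 0.12 and −0.13, with 95% intervals of −0.23 to 0.47 and −0.48 to 0.22.

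**Figure D2:**
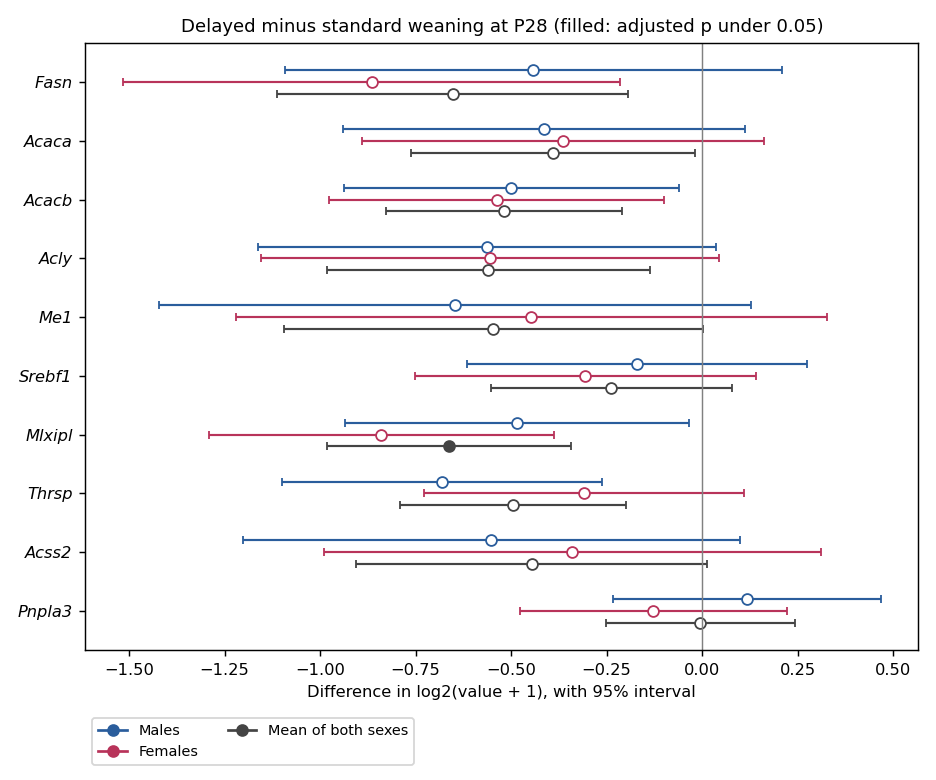
Difference between delayed and standard weaning at P28 in log2(value + 1), with its 95% interval from limma, for each gene in males, in females and as the mean of both (n = 4 per group). Filled points pass an adjusted p of 0.05, which only Mlxipl over both sexes does (−0.66), and all points but that of Pnpla3 in males (0.12) lie below 0.

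By limma, 0 of the 10 genes were called in males, where 0.256% of all genes were, and 0 in females, where 1.27% were. Over both sexes 1 of 10 was called lower, against 1.01% of all genes. There edgeR also called 1, and DESeq2 called 4 (Fasn, Acacb, Mlxipl and Thrsp). Over all 16005 genes, limma called 353 there in either direction, edgeR 299 and DESeq2 586. In males 3 genes had an unadjusted p under 0.05, and edgeR and DESeq2 each called 0. In females 3 did, and edgeR called 0 and DESeq2 2 (Fasn and Mlxipl). Over all genes limma called 204 in females, edgeR 71 and DESeq2 295. DW animals lay wholly below SW animals for Acacb, Acly, Mlxipl and Thrsp in males (3.40% of all genes did so) and for Fasn and Mlxipl in females (3.52%). The test of a difference between the sexes called 0 of 10 genes (0.0187% of all genes; 0 with an unadjusted p under 0.05, and 0 by edgeR and by DESeq2). Comparing only the male groups in the fit brought Thrsp in males to an adjusted p of 0.0433, and with levels of mammary, muscle and lymph node markers as covariates Mlxipl over both sexes stood at −0.56 and no longer passed (adjusted p = 0.178).

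P28 animals are numbered 73 to 80, 81 to 87 and, for an SW male, 124. What these runs of numbers stand for is not given. Within runs, the DW minus SW differences were negative for 9 and 8 of the 10 genes in females (medians −0.51 and −0.38) and for 8 and 10 in males (−0.54 and −0.33). The Mlxipl difference was −0.41 and −0.66 in males and −0.25 and −1.58 in females. The lower pairs of DW animals for Me1, Acaca and Acss2 were those numbered 76, 77, 79 and 80, and the higher pairs 82, 83, 86 and 87. Single runs hold 1 to 3 SW animals of a sex, so these within-run values have no test. A fit with the run 73 to 80 as a covariate changed no weaning call of the 10 genes. Mlxipl over both sexes still passed in it. Beside the weaning groups, the summed level of 9 mammary epithelial markers was 260 to 362 in SW females and 98.6 to 216 in DW females, and 41.3 or less in P28 males. Summed muscle markers ranged from 2.98 to 1734 in DW females and from 325 to 3021 in SW females. Their part in the differences was not tested beyond the fit with these levels as covariates. That fit cannot separate them from weaning in females, because the mammary sums of SW and DW females did not overlap. Over all genes its weaning calls were 10 in females, against 204 without covariates, and 131 over both sexes, against 353. Adipocyte markers summed to 17107 to 23772 in SW males and 18223 to 21780 in DW males, and to 16451 to 21844 in SW females and 17511 to 21373 in DW females, sums that are mostly Fabp4. Single adipocyte markers went both ways: in females Pparg differed by 0.56, Retn by 0.34, Cidec by −0.70 and Lipe by −0.53, none past the threshold. Of 6 brown and beige adipocyte markers, 5 were negative in each sex and over both, with medians of −0.43 in males, −0.22 in females and −0.34 over both, and 0 were called by limma. Their sums were 837 to 1404 in SW males and 530 to 892 in DW males, and 609 to 1152 in SW females and 361 to 954 in DW females. The part of these markers in the differences was not tested.

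The change from P21 to P28 after standard weaning asked how the genes stand once pups have left the mother and are a week older. P21 animals are numbered 30 to 56, against 73 to 124 at P28. Age, separation and these numbers cannot be told apart in this comparison. In SW males Fasn rose 1.98-fold, Acaca 1.81-fold and Acacb 1.58-fold. In SW females Acaca rose 1.80-fold and Acss2 1.94-fold. All 10 differences were positive in males (median 0.50) and 7 in females (median 0.54), against a median of 0.01 over all genes in each sex. Srebf1 and Mlxipl stood at 0.14 and 0.23 in males and −0.27 and −0.06 in females, none past the threshold.

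Acaca, which makes malonyl-CoA for synthesis, was 1430.3, 1228, 1345 and 1400.1 in P21 males and 2205, 2682, 2443 and 2473 in SW males. P21 females had 728, 1567, 1423 and 1732 and SW females 2339, 2567, 1814 and 2698. In both sexes every SW animal was above every P21 animal. The differences were 0.86 (SE 0.254, adjusted p = 0.0306) in males and 0.85 (SE 0.254, adjusted p = 0.0314) in females. Fasn was 4072, 4842, 4990.3 and 6951 in P21 males, all below the SW males listed above, and differed by 0.99 (SE 0.314, adjusted p = 0.0435). In P21 females it was 3636, 8433, 5831 and 7352, overlapping SW females, with a difference of 0.75 (SE 0.314, adjusted p = 0.138).

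Acacb was called in males but not in females, while the test of the sexes against each other did not pass. P21 males had 320.1, 401, 299 and 429 and P21 females 567, 550.2, 465 and 434, while SW females had 369, 523, 307 and 497. The differences from P21 to SW were 0.66 (SE 0.211, adjusted p = 0.0443) in males and −0.27 (SE 0.211, adjusted p = 0.474) in females, and their own difference was −0.93 (SE 0.299, adjusted p = 0.204). Acss2, the acetate-using enzyme, was 132, 351, 330.1 and 437 in P21 females and 579.7, 599, 466 and 596 in SW females, without overlap, a difference of 0.96 (SE 0.313, adjusted p = 0.0497). Without P21 female 30, at 132, it was 0.59 (adjusted p = 0.213), and Acaca in females was 0.57 (adjusted p = 0.142). Me1, the NADPH-making enzyme, was 469, 1599, 1168 and 1612 in P21 females, all below SW females, and differed by 1.08 (SE 0.373, adjusted p = 0.0643).

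In SW males 3 of 10 genes were called higher, against 6.90% of all genes, and 6 had every SW animal above every P21 animal (8.53% of genes): Fasn, Acaca, Acacb, Acly, Me1 and Acss2. In SW females 2 of 10 were called higher (7.39%), and 4 did not overlap, Acaca, Me1, Thrsp and Acss2 (11.4%). The male calls lay near the threshold. Leaving out any single one of P21 males 38 and 53 and SW males 84, 85 and 124 left 0 calls, and P21 male 37 or SW male 78 left 1. Without P21 male 53 and SW male 84, the libraries with fewest detected genes, 0 were called in males, with differences of 0.96 for Fasn and 0.81 for Acaca. In females 0 were called without P21 female 30 or 55 or SW female 73, 74 or 81, and 1 without SW female 75. Beside this comparison, 3 of 8 adipocyte markers rose in males (median 0.52) and 0 in females (1 fell, median 0.11), and summed erythroid markers were 573 to 2157 in P21 males against 189 to 587 in SW males, and 874 to 1215 in P21 females against 390.5 to 517 in SW females, where they did not overlap. Mammary markers summed to 41.8 to 160 in P21 females against 260 to 362 in SW females, and muscle markers to 2.89 to 505 in P21 males against 405 to 5942 in SW males. With mammary, muscle and lymph node marker levels as covariates 0 of the 10 genes were called in either sex, with estimates of 0.90 for Acaca in males and females. Over all genes that fit called 517 in males and 373 in females, against 1901 and 1860 without covariates. It cannot separate the mammary markers from the change in females, whose sums did not overlap.

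**Figure D3:**
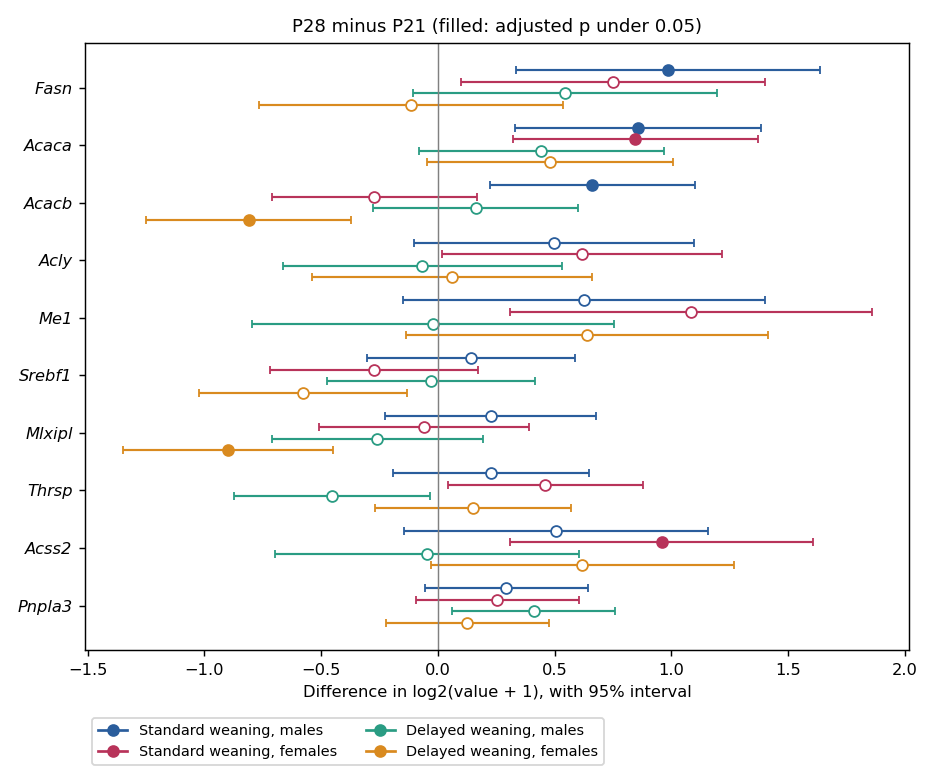
Difference between P28 and P21 in log2(value + 1), with its 95% interval from limma, for each gene by sex and weaning (n = 4 per group; the SW and DW comparisons of a sex share their P21 animals). Filled points pass an adjusted p of 0.05: Fasn, Acaca and Acacb in SW males, Acaca and Acss2 in SW females, and Acacb (−0.81) and Mlxipl (−0.90) in DW females.

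From P21 to P28 with delayed weaning, 0 of the 10 genes were called in males, where 15.0% of all genes were (2 with an unadjusted p under 0.05, and 0 by edgeR and by DESeq2). The median difference was −0.02. Fasn and Acaca in DW males stood at 0.54 and 0.44 from P21, and Thrsp at −0.45 (SE 0.202, adjusted p = 0.133). In DW females Mlxipl was 0.536 times its P21 level, −0.90 (SE 0.217, adjusted p = 0.00912), and Acacb 0.570 times, −0.81 (SE 0.211, adjusted p = 0.0152). These were 2 of 10 called lower, against 6.16% of all genes. P21 females had Mlxipl at 403, 415, 373 and 384, all above the DW females listed above, and it was the only one of the 10 without overlap in that direction (7.61% of genes). Acacb in DW females was 319, 448, 265 and 175, with 77 inside the P21 range. Beside these calls, 6 of 6 erythroid markers fell in DW females (median −1.79), 2 of 6 brown and beige markers fell (median −0.58), and 2 of 5 adipose progenitor and 1 of 9 mammary markers rose. Of all genes, 5.95% were called higher in this comparison. Of 8 adipocyte markers 1 rose (Adrb3, 0.77), 4 differences were negative and the median was −0.07. Of 6 lymph node markers 1 fell (Cd3e, −0.69). The part of all these markers in the result was not tested. Without DW females 82 and 83 neither passed: Mlxipl stood at −0.39 (adjusted p = 0.173) and Acacb at −0.41 (adjusted p = 0.238). With GC-corrected values both still passed, at −0.78 (adjusted p = 0.0021) and −0.69 (adjusted p = 0.0095). With only P21 and DW females in the fit neither passed (adjusted p = 0.11 and 0.118). Since SW and DW were each set against the same P21 animals, these values stand beside those after SW without a test between them other than that of weaning.

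With the 6 groups of each gene ordered by mean, the animals of groups next to each other overlapped in value for all 10 genes. Groups further apart in that order could be without overlap, as given above. SW males or SW females were the highest group for 8 genes (Fasn, Acaca, Acacb, Acly, Me1, Thrsp, Acss2 and Pnpla3), and P21 females for Srebf1 (204 ± 42.6, SD, n = 4) and Mlxipl (394 ± 18.7). DW females were lowest for Acacb (302 ± 114), Srebf1 (140.2 ± 45) and Mlxipl (226 ± 90.6), and DW males for Acly (2157 ± 611) and Thrsp (517 ± 86.5). Pnpla3 varied least, from 94.9 to 192 over all animals, a 2.02-fold range, and Me1 most, 6.88-fold.

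Between the sexes 0 of 10 genes were called by limma at P21 (0.356% of all genes), after SW (3.54%) or after DW (2.46%). At an unadjusted p under 0.05 there were 2, 1 and 2. edgeR called 0 each time, and DESeq2 called 0, 0 and 1. Over all genes edgeR called 15, 422 and 382, and DESeq2 115, 564 and 848. Thrsp, the gene DESeq2 called, had every female above every male after SW (6.27% of genes) and after DW (5.60%), where the female minus male difference was 0.64 (SE 0.202, adjusted p = 0.0965). Without DW females 82 and 83 it was 0.28 (adjusted p = 0.717). At P21 every female exceeded every male for Acacb (2.98% of genes), a difference of 0.48 (SE 0.211, adjusted p = 0.537). After SW the difference in Acacb was −0.45, and after DW −0.49. The test of whether the change from P21 to SW differed by sex called 0 of 10 (1.03% of all genes; 1 with an unadjusted p under 0.05, Acacb, and 0 by edgeR and by DESeq2). Without DW females 82 and 83 in the fit, which are in neither group compared, Acacb passed that test (−0.93, adjusted p = 0.0478).

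Across the 24 animals 7 of the 10 genes fell in 2 blocks. With group means removed, Acaca, Acly, Me1 and Acss2 correlated with each other at r = 0.888 to 0.948, and Acacb, Srebf1 and Mlxipl at 0.701 to 0.759. Between the blocks all values were negative, from −0.52 for Me1 with Srebf1 to −0.08 for Acacb with Acly. Fasn correlated with members of both, at 0.571 with Acly and 0.53 with Acacb, and Thrsp with few, at most 0.393 (Acly). Pnpla3 correlated most with Fasn (0.582), Srebf1 (0.561) and Mlxipl (0.513). Without removing group means, values between the 2 blocks ran from −0.42 (Me1 with Srebf1) to 0.14 (Acly with Mlxipl). Some libraries were high in 1 block and low in the other. P21 female 30 was lowest of the 24 in Me1 (469) and highest in Srebf1 (255). DW female 82 was highest in Me1 (3229) and had Mlxipl at 186, and DW female 83 was lowest in Mlxipl (117). The part of these libraries in the blocks was not tested. All these r values are descriptions over 24 libraries that share library depth, scaling and GC content. The second block is the more GC-rich (56.68% for Acacb, 58.39% for Srebf1 and 56.57% for Mlxipl, against 45.08% for Me1, 49.09% for Acaca, 52.15% for Acly and 52.41% for Acss2 in the first), and the part of GC content in the blocks was not tested.

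**Figure D4:**
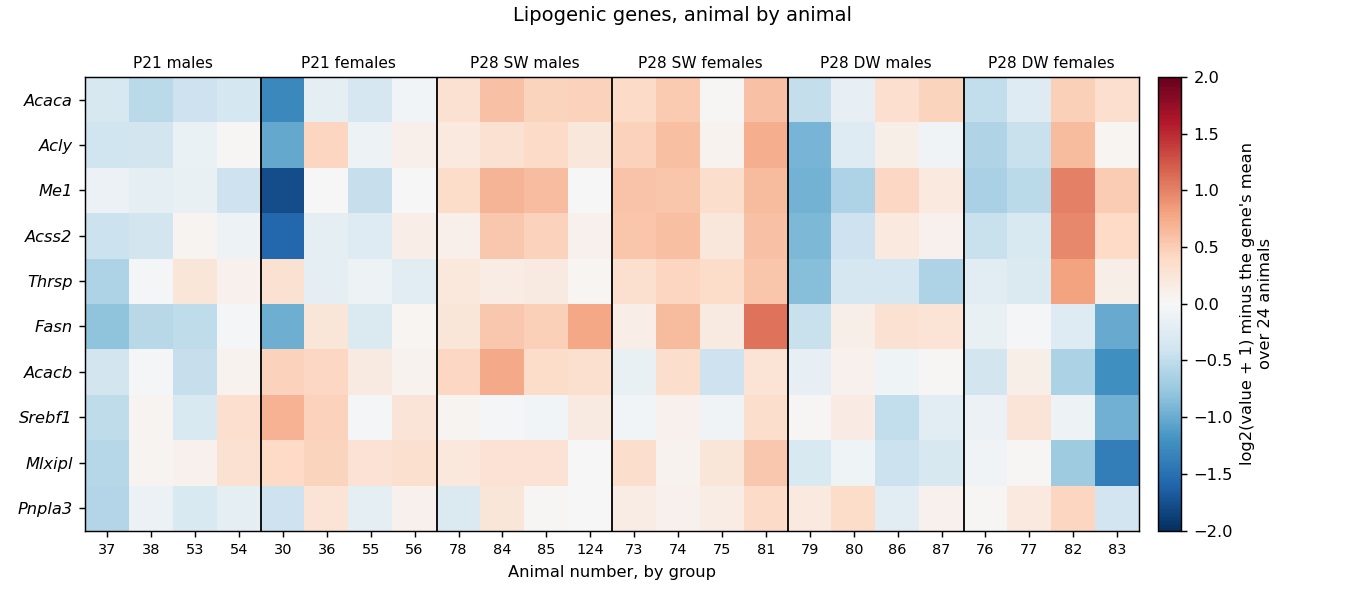
Colour gives each animal's log2(value + 1) minus the gene's mean over 24 animals, from −2 (blue) to 2 (red), with animals in columns by group and number. Acaca, Acly, Me1 and Acss2 change colour together, low in P21 female 30 and DW animals 76, 77, 79 and 80 and high in DW female 82, where Acacb and Mlxipl are low.

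Other genes of the pathway were read from lists, with 55 of 57 listed genes measured. In the list of acetyl-CoA and citrate supply, limma called 1 of 7 genes lower with delayed weaning in females (0.812% of all genes) and over both sexes and 0 in males (2 with an unadjusted p under 0.05, and 0 by edgeR and 1 by DESeq2), with medians of −0.04, −0.24 and −0.30. It was Slc25a1, the carrier that exports citrate from the mitochondrion. Slc25a1 was 1528, 1606, 1861 and 1311 in SW males and 772, 787, 1044 and 881 in DW males. SW females had 1437, 1856, 1272 and 1712 and DW females 987, 833, 659.5 and 463. No DW animal reached an SW animal of its sex. The differences were −0.85 (SE 0.201, adjusted p = 0.0903) in males, −1.13 (SE 0.201, adjusted p = 0.00586) in females and −0.99 (SE 0.142, adjusted p = 0.000365) over both. Over both sexes it passed in all 27 alternatives, with an adjusted p of 0.0136 or less, and without DW females 82 and 83 it was −0.81. In females without those animals it was −0.78 (adjusted p = 0.296). Within runs it was −0.97 and −0.85 in males and −0.73 and −1.63 in females. After SW it rose from P21 by 1.41 (SE 0.201, adjusted p = 0.000147) in males and 1.22 (SE 0.201, adjusted p = 0.000268) in females, while DW stood at 0.56 and 0.09. In that list 2 of 7 genes rose from P21 to SW in males (the other was Pcx, pyruvate carboxylase, 0.80 (SE 0.206, adjusted p = 0.0151)), and in females 1 rose and 2 fell, among them Cs, citrate synthase, at −0.57 (SE 0.148, adjusted p = 0.0128). Of all genes, 6.90% were called higher in males, and in females 7.39% higher and 4.23% lower.

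Of 10 measured genes of sugar uptake and glycolysis, limma called 3 lower with delayed weaning over both sexes (1.01% of all genes), 1 in females and 0 in males, where 3 had an unadjusted p under 0.05. Medians were −0.51, −0.70 and −0.40. Over both sexes edgeR called 2 and DESeq2 6, in females 0 and 1, and in males 0 and 0. Gpi1, glucose-6-phosphate isomerase, fell by 0.73 over both sexes (SE 0.155, adjusted p = 0.0112) and by 0.88 in females (SE 0.219, adjusted p = 0.0478). Without DW females 82 and 83 neither passed (−0.50, adjusted p = 0.071, and −0.44, adjusted p = 0.93), and in females the call was lost in 14 of 19 alternatives. Slc2a4, the insulin-responsive glucose transporter, fell by 0.39 (adjusted p = 0.0332), and by 0.46 without those animals (adjusted p = 0.0151). Its call was lost in 14 of 27 alternatives, with differences of −0.46 to −0.31 and an adjusted p of up to 0.195 over the 27. They include edgeR, GC-corrected values, marker covariates and leaving out singly SW males 78, 84 or 85, SW females 73, 74 or 81, DW males 79 or 80 or DW females 77 or 83. Slc2a5, the fructose transporter, was 50.2, 49.9, 49.6 and 49.9 in SW males and 13.5, 21.4, 37.4 and 30.7 in DW males. SW females had 63.7, 79.4, 48.9 and 66 and DW females 28.9, 26.4, 41.1 and 22.4. All DW animals were below all SW animals of their sex, and the difference over both sexes was −1.06 (SE 0.267, adjusted p = 0.0353), or −1.10 without the pair (adjusted p = 0.089). It did not pass in 12 of 27 alternatives, at −1.17 to −0.93 over all (adjusted p up to 0.255). From P21 to SW Slc2a5 rose by 1.28 (SE 0.378, adjusted p = 0.0307) in males and 1.77 (SE 0.378, adjusted p = 0.00305) in females, in each sex the 1 gene of the 10 that passed (6.90% and 7.39% of all genes were called higher). The male call was lost in 9 of 18 alternatives (adjusted p up to 0.128) and the female call in 1.

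**Figure D5:**
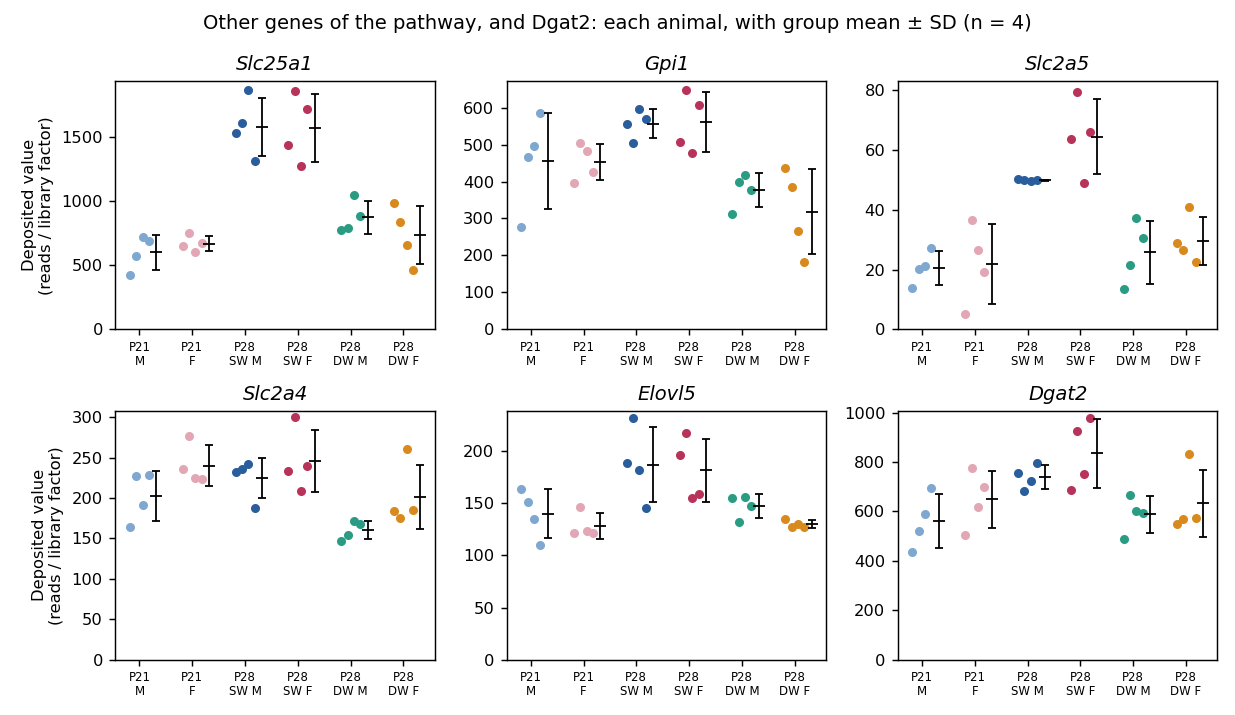
Deposited values (linear axes from 0) of Slc25a1, Gpi1, Slc2a5, Slc2a4, Elovl5 and Dgat2, 1 point per animal, with the group mean and SD beside the points (n = 4). For Slc25a1 the SW animals lie at 1272 to 1861 and the DW animals at 463 to 1044.

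Of 6 genes of elongation and desaturation, limma called 1 lower with delayed weaning over both sexes (median −0.23) and 0 in either sex alone (2 in each with an unadjusted p under 0.05, and 0 by edgeR and by DESeq2). Over both, edgeR called 1 and DESeq2 2. It was Elovl5, an elongase of polyunsaturated fatty acids, at −0.40 (SE 0.095, adjusted p = 0.0265), and −0.39 without DW females 82 and 83 (adjusted p = 0.091), and its call was lost in 8 of 27 alternatives. From P21 to SW 3 rose and 1 fell in males (6.90% and 4.97% of all genes), and 3 rose in females (7.39%). Scd1, the stearoyl-CoA desaturase, rose in both. Its means after DW were 35748 ± 6798 in males and 31743 ± 3518 in females, and after SW 33332 ± 3411 and 35862 ± 11926 (SD, n = 4). Its weaning difference over both sexes was −0.02 (SE 0.29, adjusted p = 0.978). Elovl6, which lengthens palmitate, was 469 ± 227 and 538 ± 164 after DW against 848 ± 109 and 918 ± 172 after SW, a difference of −0.89 (SE 0.243, adjusted p = 0.0549).

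In the NADPH supply list, limma called 0 of 8 genes for weaning in males, in females or over both (0, 2 and 5 had an unadjusted p under 0.05). edgeR called 0 in each, and DESeq2 called 0, 0 and 1. From P21 to SW 1 rose and 2 fell in males, and 1 rose and 1 fell in females. Of all genes, 6.90% were called higher and 4.97% lower in males, and 7.39% and 4.23% in females. Tkt, transketolase, rose by 0.99 (SE 0.307, adjusted p = 0.0376) in males and 1.12 (SE 0.307, adjusted p = 0.0186) in females. In males the call was lost in 9 of 18 alternatives (0.73 to 1.21, adjusted p up to 0.126). In females it was lost in 4 of 18 (0.61 to 1.28, adjusted p up to 0.574): without P21 female 30 or SW female 74 or 81, and with marker covariates, which gave the lowest difference. Idh1, the cytosolic isocitrate dehydrogenase, stood at −0.36 (SE 0.108, adjusted p = 0.0341) and −0.39 (SE 0.108, adjusted p = 0.0187), and Rpia, ribose-5-phosphate isomerase, at −0.87 (SE 0.133, adjusted p = 0.000282) in males. Idh1 did not pass in 9 of 18 alternatives in males and 3 of 18 in females, whereas Rpia passed in all 18. Of 6 nuclear receptors and partners, 0 were called for weaning by limma, edgeR or DESeq2 (0, 2 and 2 with an unadjusted p under 0.05 in males, females and over both), and 1 fell from P21 to SW in each sex, Mlx, the obligate partner of ChREBP, by 0.52 in males (adjusted p = 0.0436) and 0.51 in females (adjusted p = 0.0497). edgeR called 0 genes of this list in either sex, and the Mlx call was lost in 10 and 11 of 18 alternatives. Of 6 genes of SREBP processing, 7 of acetyl-CoA carboxylase control and 5 of mitochondrial fatty acid synthesis, limma called 0 in any of those comparisons, with at most 1, 3 and 1 genes at an unadjusted p under 0.05. edgeR and DESeq2 called 0, but for 1 gene of carboxylase control from P21 to SW in males. Their medians for weaning over both sexes were 0.05, −0.21 and −0.10.

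Among 9124 genes with a mean value of at least 10, the 5 whose levels over the 24 animals most resembled the mean of the 10 lipogenic genes were Dgat2, Aspg, Pgd, Pth1r and Tlcd3b. Dgat2, the final enzyme of triglyceride synthesis, had r = 0.911 (0.841 with group means removed), and was 756, 683, 723 and 795 in SW males and 489.7, 668, 602 and 592 in DW males. SW females had 687, 924, 752 and 979 and DW females 550.5, 571, 835 and 576. The male groups did not overlap and the female groups did, and the weaning difference was −0.34 (SE 0.165, adjusted p = 0.731) in males, −0.41 (SE 0.165, adjusted p = 0.214) in females and −0.37 (SE 0.117, adjusted p = 0.104) over both. Pgd, an NADPH-making enzyme of the pentose phosphate route and a listed gene, had r = 0.875 (0.824). Aspg had r = 0.880 (0.796), Pth1r 0.869 (0.739) and Tlcd3b 0.868 (0.741). By limma these last genes were lower with delayed weaning over both sexes (1.01% of all genes were). Aspg differed by −1.07 (adjusted p = 0.0068), Pth1r by −0.79 (adjusted p = 0.00489) and Tlcd3b by −0.62 (adjusted p = 0.0258). Pgd, at −0.43 (adjusted p = 0.133), did not pass. Within a sex, only Pth1r in females passed (−0.98, adjusted p = 0.0267). The 10 genes themselves correlated with their mean at 0.342 (Srebf1) to 0.872 (Fasn), values that are raised because each gene is part of that mean.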

How the data were processed

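Poly(A) RNA of inguinal white adipose tissue from 24 mice was sequenced, 1 library per mouse, grouped by labelled age, sex and weaning. The titles of all P21 libraries name P28, against their descriptions and age labels, and a title among them also gives a different animal number. These titles were not used, and descriptions and age labels were followed. The authors deposited 1 table with a signal per gene and library, a read number over a factor specific to the library. All values (100%) were whole multiples of the library's smallest value (tolerance 0.01), so whole reads were recovered. fastp, HISAT2, featureCounts, DESeq2 1.38.3 and the build mm10 are named in the submitters' processing notes, without their roles. Strand setting and annotation are not given in the sources used here, so reads of overlapping or antisense genes cannot be told apart. The deposited gene positions carry no build. Of 16208 rows, 90 repeated ones were left out.

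Genes were kept by filterByExpr on recovered reads (minimum count 10), which left 16005. limma 3.58.1 (R 4.3.3, lmFit and eBayes with a variance trend) was fitted to log2(value + 1) of all 24 animals with 6 group coefficients and 18 residual degrees of freedom. Genes were called at a Benjamini-Hochberg adjusted p under 0.05 over all 16005. Differences on this scale understate changes of low genes. edgeR 4.0.16 and DESeq2 1.42.0 on the recovered reads were alternatives. The tests were tried on simulated counts with a single fold change and a spread not taken from these groups. That trial therefore does not tell how well differences of the size seen here would be found. The values include the authors' scaling, and a p-value measures the spread between these animals, whose litters are not given. No animal number occurs in more than 1 group, so no pairing was possible.

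The members and gene lists were chosen with earlier results of these data known. Named are all 10 members and, per pathway list, the 2 called genes with the smallest adjusted p in each weaning and SW age comparison. Also named are the 5 genes most like the members' mean, and marker genes beside a result. Alternatives, whose effect is given at the end, were pseudocount 0.1, no filter, TMM scaling, fits of the compared groups only, marker levels or the run of animal numbers as covariates, and libraries left out. GC correction and leaving out DW females 82 and 83 together were added after seeing the data. The authors' own fold changes were not used here.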

Additional observations from a re-analysis of the deposited data

Results flagged for a closer look

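Acss2 in SW female 75 was 466.2, apart from the other SW females, which lay at 579.7 to 599. The gap to its nearest neighbour, as a share of the group's range, exceeded the 95% critical value of Dixon's test for 4 samples. Of 60 gene-by-group sets of 4 animals tested, 1 passed, and about 3 would by chance.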

How the results depend on the processing

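Over 35 other settings, the 10 genes gave 2430 alternative values. Of these, 0 reversed a called difference, 56 lost a call, 31 gained one, and 138 changed sign where neither value was called. The numbers of the 10 genes called moved as follows. Fits restricted to the groups compared called 1 for weaning in males, 2 from P21 to SW in males and 1 in females, and 0 from P21 to DW in females. DESeq2 called 2 for weaning in females, 4 for weaning over both sexes, 4 from P21 to SW in females and 1 between the sexes after DW. Over all genes it called 295, 586, 1995 and 848 in these comparisons, against 204, 353, 1860 and 394 by limma. edgeR, no filter, a pseudocount of 0.1, TMM scaling, or leaving out P21 male 53 and SW male 84 together each gave 1 from P21 to SW in females, and the last gave 0 in males. Marker levels as covariates gave 0 for weaning over both sexes, 0 from P21 to SW in either sex and 3 from P21 to DW in females. The run of animal numbers as a covariate, fitted for the weaning comparisons only, changed no call. GC-corrected values gave 1 for weaning in females and 3 from P21 to SW in females (Me1 was added). Without DW females 82 and 83, the counts were 3 from P21 to SW in females (Me1 again), 1 from P21 to DW in males, 0 in females, and 1 for the sex difference of the change from P21 to SW. Leaving out each animal gave 0 to 2 calls for weaning in females and over both sexes, 0 to 3 from P21 to SW in males and 0 to 3 in females, 0 to 1 from P21 to DW in males and 1 to 3 in females, and 0 to 2 between the sexes after DW. Over all genes, calls for weaning in females were 204 in the main analysis, 71 by edgeR and 7 without DW females 82 and 83 (1 to 1996 over all settings). In males they were 41 (10 to 134), over both sexes 353 (131 to 1098), and from P21 to SW 1901 in males (517 to 2976) and 1860 in females (373 to 2557). No paired analysis was possible because no animal number is shared between groups. With 4 animals a group, the spread between animals, not read depth, sets the width of the intervals.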
